A study of Homo sapiens with 4 samples.

Results

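The 10 genes described here belong to the BCL2 family, and they were taken by symbol (BCL2, BCL2A1, BCL2L1, BCL2L11, MCL1, BAX, BAK1, BBC3, PMAIP1 and BID) from the 24424 gene symbols counted in RNA sequencing libraries of BEAS-2B cells. The rule uses no measured value, although the genes were chosen with earlier results of these data known. BEAS-2B is a human bronchial epithelial cell line that was immortalised with a hybrid virus carrying the SV40 large T antigen. There were 4 libraries, 1 for each condition. Control cells received no treatment, LPS cells received lipopolysaccharide, the outer membrane component of Gram-negative bacteria, for 2 hr, and the WT PDZ+LPS and mut PDZ+LPS cells were given a peptide 24 hr ahead of the same LPS treatment. The WT PDZ peptide copies part of the first PDZ domain of the tight junction protein ZO-1 joined to a TAT sequence that carries it into cells and to the fluorescent tag FITC, and in the mut PDZ peptide a pair of neighbouring glycines was changed to alanines. No library held a peptide without LPS. For short, WT PDZ and mut PDZ name the libraries with peptide and LPS, and a comparison is written as one library over another.

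BCL2 family proteins decide whether the outer membrane of mitochondria stays closed. The survival members (BCL2, BCL2L1, MCL1 and BCL2A1) hold the effectors BAX and BAK1 in check, and the effectors, once free, form pores that release cytochrome c and set off caspases. The BH3-only members (BCL2L11, BBC3, PMAIP1 and BID) bind the survival members or activate the effectors, and several of them are known transcriptional targets of FOXO or stress pathways, while BCL2A1 is a known NF-kB target. In bulk RNA, fewer cells of a kind and less RNA per cell cannot be told apart, and transcript counts give no protein level or cleavage, which matter for MCL1, a short-lived protein, and for BID, which acts after caspase cleavage.

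After 2 hr of LPS, 3 of the 10 genes stood at least 2-fold above Control in all LPS-treated libraries: BCL2A1, BBC3 and PMAIP1. Of all genes tested, 3.46% were that much higher in LPS over Control, 3.28% in WT PDZ over Control and 5.13% in mut PDZ over Control. The share of genes higher in all of these together was not computed. Scaling by total counts left PMAIP1 just short of 2-fold with LPS and with WT PDZ. Because these 3 stood higher together, the DNA around their transcription starts is printed here, from 250 bases before to 50 bases after a RefSeq start in GRCh38.p14, read 5′ to 3′ along the gene's strand. Capitals mark a match to the AP-1 motif TGANTCA, where N is any base.
BCL2A1, chr15:79971147-79971446, minus strand: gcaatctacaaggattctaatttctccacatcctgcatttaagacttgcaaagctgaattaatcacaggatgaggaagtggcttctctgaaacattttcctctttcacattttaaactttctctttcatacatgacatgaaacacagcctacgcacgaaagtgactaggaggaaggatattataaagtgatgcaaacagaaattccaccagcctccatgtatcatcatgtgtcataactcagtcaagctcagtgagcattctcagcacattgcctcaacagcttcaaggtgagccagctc
BBC3, chr19:47232618-47232917, minus strand: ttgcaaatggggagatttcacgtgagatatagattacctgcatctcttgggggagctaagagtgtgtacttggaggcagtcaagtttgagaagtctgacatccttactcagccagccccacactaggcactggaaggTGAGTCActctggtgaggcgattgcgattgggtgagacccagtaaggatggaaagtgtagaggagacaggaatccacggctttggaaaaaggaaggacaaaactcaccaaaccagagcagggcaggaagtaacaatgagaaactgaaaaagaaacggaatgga
PMAIP1, chr18:59899746-59900045, plus strand: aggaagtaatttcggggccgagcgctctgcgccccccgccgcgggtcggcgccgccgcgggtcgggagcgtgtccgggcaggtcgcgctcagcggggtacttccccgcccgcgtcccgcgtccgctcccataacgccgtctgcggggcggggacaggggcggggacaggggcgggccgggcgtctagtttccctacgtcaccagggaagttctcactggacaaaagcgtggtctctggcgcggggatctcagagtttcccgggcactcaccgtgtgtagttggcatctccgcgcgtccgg
Windows were found for 9 of the 10 genes (MCL1 is named only), 14 windows in all, since BCL2L1 and BID have several starts. The AP-1 motif is in 1 of these 14, that of BBC3, 113 bases before the start, and in 7.71% of all 35116 windows of this kind. The NF-kB consensus, searched on both strands like the AP-1 motif, is in 0 of the 9 genes' windows and in 11.3% of all windows. The window of BCL2A1 has a GC content of 41.0%, that of BBC3 48.0% and that of PMAIP1 71.3%, beside a median of 58.7% over all windows. A match is a run of letters and not a measured binding site, and a missing match says only that the letters are not in these 300 bases.

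The libraries held 24823347 counts in Control, 25155647 with LPS, 23446600 with WT PDZ and 19682929 with mut PDZ. With 1 library per condition there is no replicate check and no test, and all differences below compare libraries. Brackets give 95% exact binomial (Clopper-Pearson) intervals, which cover counting error only, because each condition had 1 library. The reads carried no molecular identifiers, so PCR copies count again, and the intervals can be too narrow even for counting error. A gene was called when it differed by 2-fold or more and reached 16 normalized counts on one side or both. The log2 fold changes of all genes in mut PDZ over LPS ran against transcript length, with a Spearman rho of -0.60 across 11751 genes, against 0.074 in WT PDZ over LPS and 0.15 in LPS over Control. Many values of the mut PDZ library are therefore also given with the trends over length and GC content taken out (the correction). A mut PDZ value not said to be corrected still holds the trend. Whether the trend comes from the peptide or from the library cannot be told apart. All 9 markers of airway epithelium were detected (KRT7 led, at 38725 to 51663 normalized counts), although EPCAM held only 37 to 51 counts. The leukocyte list (10 markers) summed to 767 to 935 normalized counts, mostly CD14 and CD68, and PTPRC, MS4A1 and TYROBP were at 0 in all libraries. The fibroblast list (5 markers) summed to 300 to 447 normalized counts, nearly all of COL1A1, and the endothelial list (4 markers) to 24.7 to 32.0.

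BCL2A1, a survival protein best known from blood cells, went from no counts to a measurable transcript. It had 0 counts in Control, 74 with LPS, 56 with WT PDZ and 101 with mut PDZ, or 69.6, 56.5 and 119 normalized counts in the 3 LPS-treated libraries. Control therefore stood apart from all others, and mut PDZ was the highest. In mut PDZ over LPS its log2 fold change was 0.76 [0.32 to 1.22], and 0.39 after the correction. With the 0 taken as a floor of 3 counts in the Control library, BCL2A1 was 26.7-fold higher with LPS, 21.7-fold with WT PDZ and 45.5-fold with mut PDZ. These folds leave out the counting error of the LPS-treated libraries. The lower ends of the counting intervals over Control, on the log2 scale, were 4.40 with LPS, 4.09 with WT PDZ and 5.18 with mut PDZ. The general leukocyte gene PTPRC stayed at 0 counts in the same libraries, and the summed leukocyte list was 801 normalized counts in Control, 772 with LPS, 767 with WT PDZ and 935 with mut PDZ, where CD14 (523) was also at its highest. The part of these markers in the BCL2A1 level was not tested. By the distance over its 3 log2 fold changes (LPS over Control, WT PDZ over LPS and mut PDZ over LPS, from 4 libraries), the 5 genes with the most similar pattern among 13071 were CXCL3, G0S2, CCL2, TNFAIP6 and KRT6B. CXCL3, a neutrophil chemokine, went from 102 counts in Control to 5408 with LPS, 5016 with WT PDZ and 6937 with mut PDZ. G0S2, an inhibitor of fat breakdown, went from 17 counts in Control to 978, 952 and 1497. Because BCL2A1 had 0 counts in Control, its place among these genes depends on the pseudocount of 1.

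BCL2, the founding survival gene, was the least abundant member per length in every LPS-treated library. It had 206 counts in Control, 117 with LPS, 155 with WT PDZ and 101 with mut PDZ, which are 179, 110, 157 and 119 normalized counts. LPS and mut PDZ were low and WT PDZ lay closer to Control. The log2 fold change was -0.70 in LPS over Control [-1.04 to -0.37] and -0.19 in WT PDZ over Control [-0.51 to 0.11]. Against LPS, BCL2 was 1.42-fold higher with WT PDZ, a log2 fold change of 0.50 [0.15 to 0.87]. In mut PDZ over LPS the log2 fold change was 0.11 [-0.29 to 0.51], and 0.54 after the correction for length and GC content, BCL2 having the longest transcript of the set. Over Control, mut PDZ stood at -0.59 before and -0.21 after the correction, so it grouped with LPS only before it. BCL2 was called in no comparison.

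BCL2L1, which encodes BCL-xL and the shorter pro-death BCL-xS, was the second most abundant member per length. Its normalized counts were 4629 in Control, 3903 with LPS, 4016 with WT PDZ and 4552 with mut PDZ. LPS and WT PDZ were slightly lower than the others, with a log2 fold change of -0.25 in LPS over Control [-0.31 to -0.19] and -0.20 in WT PDZ over Control [-0.26 to -0.15]. With mut PDZ it was -0.024 over Control before and -0.15 after the correction, and 0.22 over LPS before and 0.069 after it. Counts per gene symbol do not separate its splice forms. Its exons share 1424 of 3314 bases with the antisense gene ABALON, which had 2840 counts in Control, 2207 with LPS, 2314 with WT PDZ and 1424 with mut PDZ. Whether the counting used strand is not given in the sources used here, so reads in the shared part cannot be told apart.

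MCL1, which encodes a short-lived survival protein, was the most abundant of the 10 in every library. It reached 13768 normalized counts in Control, 18592 with LPS, 18388 with WT PDZ and 15059 with mut PDZ. LPS and WT PDZ were 1.35-fold and 1.34-fold above Control, while mut PDZ was 1.09-fold above it, and 1.23-fold after the correction. The WT PDZ over LPS log2 fold change of MCL1 was -0.016 [-0.045 to 0.013], and no difference was detectable at this depth. In mut PDZ over LPS it was -0.30 [-0.34 to -0.27], and -0.13 after the correction. MCL1 alone made up 45.3% of the per-kilobase sum of the 10 genes in Control, 49.6% with LPS, 49.5% with WT PDZ and 39.7% with mut PDZ.

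**Figure D1:**
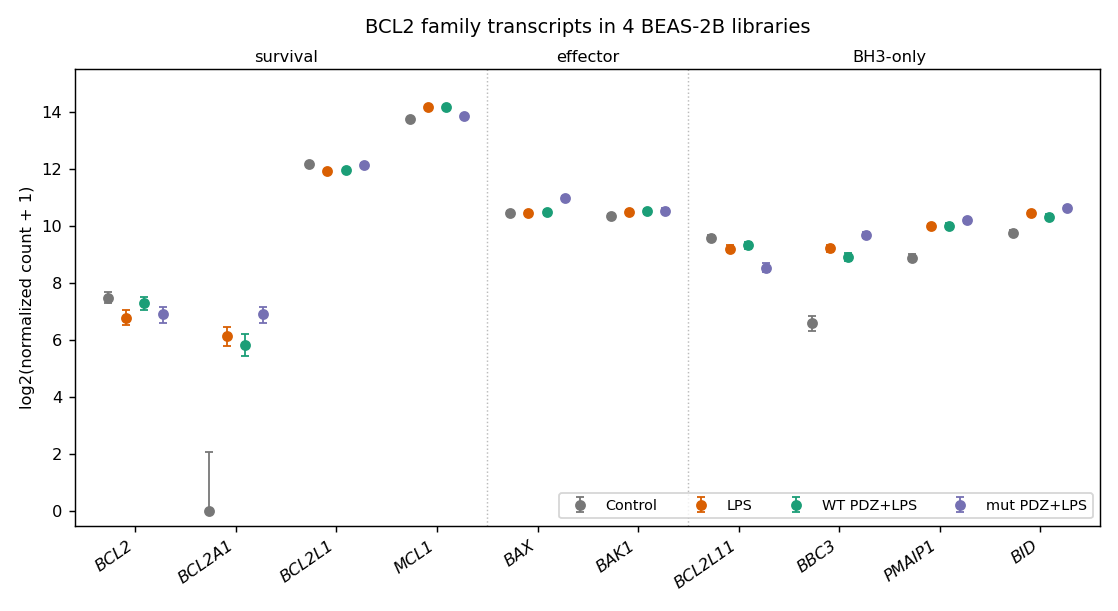
Level of each BCL2 family transcript in the 4 libraries, as log2(normalized count + 1) on the vertical axis, with the genes grouped by role on the horizontal axis. Points are single libraries and bars are 95% Poisson counting intervals. BCL2A1 sits at 0 in Control and at 56.5 to 119 normalized counts in the other libraries, and MCL1 is the highest gene throughout.

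The effectors differed little between Control and LPS. BAX, which moves from the cytosol to mitochondria when activated, had 1409 normalized counts in Control, 1402 with LPS, 1428 with WT PDZ and 2033 with mut PDZ. The first 3 libraries lay close together, and the LPS over Control log2 fold change was -0.0076 [-0.11 to 0.095]. The mut PDZ library stood apart at 1.45-fold above LPS, a log2 fold change of 0.54 [0.44 to 0.64]. The BAX transcript, at 1358 nt, is the second shortest of the set, and after the correction that log2 fold change was 0.084.

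BAK1, the effector that is already anchored in the mitochondrial membrane, varied least of the 10 over the 4 libraries on the normalized scale. It had 1304 normalized counts in Control, 1450 with LPS, 1465 with WT PDZ and 1496 with mut PDZ. Its log2 fold change was 0.15 in LPS over Control [0.049 to 0.26], 0.17 in WT PDZ over Control and 0.20 in mut PDZ over Control (-0.026 corrected). In mut PDZ over LPS it was 0.045 [-0.063 to 0.15] before and -0.22 after the correction. Before that correction, its level in both peptide libraries lay within 1.03-fold of LPS.

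BBC3, which encodes PUMA, a BH3-only protein that binds all survival members, differed more between Control and the LPS-treated libraries than any other BH3-only gene of the set. It had 110 counts in Control, 633 with LPS, 481 with WT PDZ and 698 with mut PDZ, or 95.7, 595, 486 and 820 normalized counts. Control was far below the others, with WT PDZ the lowest and mut PDZ the highest of the LPS-treated libraries. The fold over Control was 6.17 with LPS, 5.03 with WT PDZ and 8.49 with mut PDZ. After the correction the fold was 6.26 with LPS and 5.49 with mut PDZ, which was then no longer above LPS. Before it, the log2 fold change of LPS over Control was 2.62 [2.34 to 2.94]. Against LPS, BBC3 had a log2 fold change of -0.29 with WT PDZ [-0.47 to -0.12], a level 1.23-fold lower. In mut PDZ over LPS the log2 fold change was 0.46 [0.30 to 0.62], and -0.19 after the correction, so its sign depended on that step. With a GC content of 69.7%, its transcript was the richest in GC among the 10, and the correction for length alone left 0.21.

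PMAIP1, which encodes NOXA, a BH3-only protein that binds chiefly MCL1 and BCL2A1, had 477 normalized counts in Control, 1028 with LPS, 1034 with WT PDZ and 1182 with mut PDZ. The 3 LPS-treated libraries lay together, at 2.15-fold, 2.17-fold and 2.48-fold above Control. The WT PDZ over LPS log2 fold change was 0.0082 [-0.12 to 0.13], and that of mut PDZ over LPS was 0.20 [0.076 to 0.33] before and 0.0024 after the correction. Its LPS over Control log2 fold change was 1.11, and the lower bound of the interval, 0.96, lies just under the 2-fold line of 1 on the log2 scale.

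BID, which links death receptors to mitochondria, was higher in the LPS-treated libraries without reaching the 2-fold rule. Its normalized counts were 874 in Control, 1410 with LPS, 1292 with WT PDZ and 1597 with mut PDZ. The fold over Control was 1.61 with LPS, 1.48 with WT PDZ and 1.83 with mut PDZ. Against LPS the log2 fold change was -0.13 with WT PDZ [-0.24 to -0.018] and 0.18 with mut PDZ [0.072 to 0.29], the latter 0.12 after the correction.

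BCL2L11, which encodes BIM, an activator of BAX and BAK1, was the only BH3-only member lower in every LPS-treated library than in Control. It had 888 counts in Control, 629 with LPS, 633 with WT PDZ and 317 with mut PDZ, or 773, 592, 639 and 372 normalized counts. LPS and WT PDZ were close to each other, and mut PDZ was the lowest. The log2 fold change was -0.38 in LPS over Control [-0.53 to -0.24] and -0.27 in WT PDZ over Control [-0.42 to -0.13]. In mut PDZ over Control it was -1.05 [-1.24 to -0.87], the one lower call among the 10, and -0.79 after the correction, which is short of 2-fold. Its exons share 727 of 6658 bases with MIR4435-2HG on the opposite strand, which had 1245 counts in Control, 1055 with LPS, 1112 with WT PDZ and 877 with mut PDZ, and reads in the shared part cannot be assigned without strand.

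**Figure D2:**
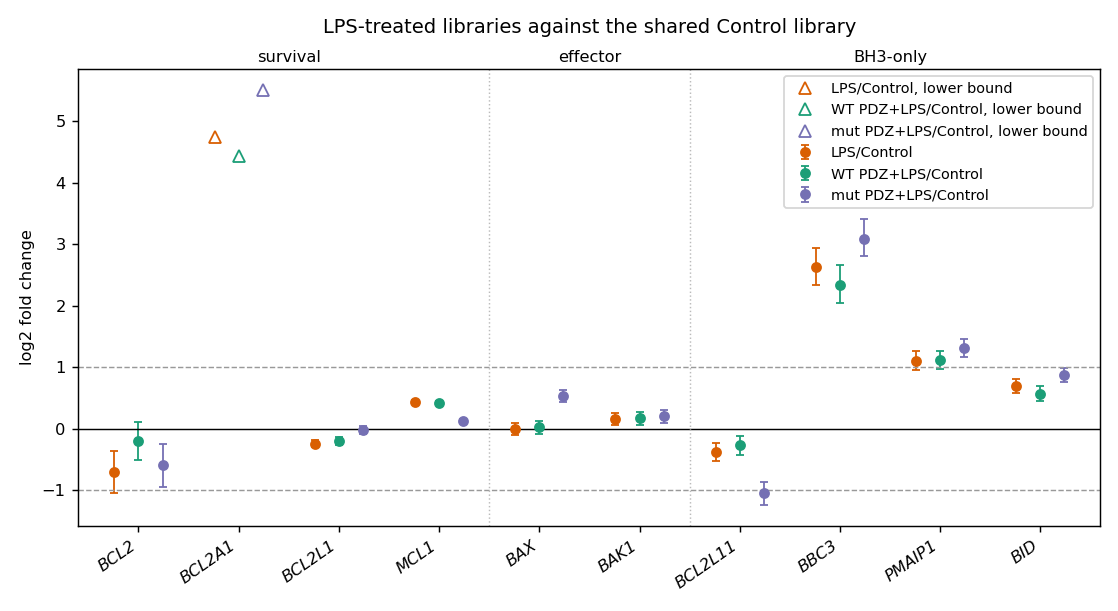
Log2 fold change of each gene (vertical axis) in the 3 LPS-treated libraries against the shared Control library, by role. Filled points carry 95% exact binomial counting intervals, and dashed lines mark 2-fold. Open triangles, labelled lower bound, are BCL2A1 values with 0 counts in Control taken as 3, and they carry no counting interval. BCL2A1, BBC3 and PMAIP1 lie above the upper line in all libraries, and BCL2L11 crosses the lower line in mut PDZ over Control alone.

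Over the set, 3 of the 10 genes were called higher in LPS over Control, where 3.46% of 13277 genes were, and 0 were called lower, where 1.41% were. The counting interval lay above 0 for 6 of the 10 (25.9% of all genes) and below 0 for 3 (BCL2, BCL2L1 and BCL2L11; 21.3% of all genes), while that of BAX held 0. In WT PDZ over Control the higher calls were again 3 of 10, against 3.28% of genes, and the lower calls 0, against 1.42%. The mut PDZ library had 3 higher calls over Control, against 5.13% of genes, and 1 lower call, against 2.96%. All these comparisons share the Control library, so they are not separate counts of the same event. The median log2 fold change of the 10 genes was 0.29 in LPS over Control, 0.29 in WT PDZ over Control and 0.36 in mut PDZ over Control (0.22 corrected), beside all-gene medians of -0.0010, 0.010 and -0.018. Without BCL2A1 these medians were 0.15, 0.17 and 0.20. Survival and BH3-only members went both ways. In LPS over Control 2 of the 4 survival genes were higher and 2 lower, 3 of the 4 BH3-only genes were higher and 1 lower, and of the effectors BAK1 stood at 0.15 and BAX at -0.0076 on the log2 scale.

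To ask what the WT PDZ peptide did beyond LPS, WT PDZ was set against LPS. The members whose interval left out 0 were BCL2 (1.42-fold higher), BBC3 (1.23-fold lower) and BID (1.09-fold lower). No member was called, where 1.37% of 13236 genes were called in either direction. The interval lay above 0 for 1 of the 10 (BCL2), against 12.1% of all genes, and below 0 for 2 (BBC3 and BID), against 10.2%. The median log2 fold change of the 10 genes was 0.012, beside 0.0075 over all genes. BCL2A1 had the widest interval, -0.83 to 0.22 around -0.30 on the log2 scale from 56 and 74 counts, which holds both 0 and a level 1.5-fold lower.

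The same question for the mut PDZ peptide gave larger differences that followed transcript length. Over LPS, 0 of the 10 genes were called with mut PDZ, where 3.95% of 13378 genes were. The interval lay above 0 for 6 of the 10 (28.8% of all genes) and below 0 for 2, MCL1 and BCL2L11 (33.7% of all genes). The shortest transcript, BCL2A1 at 1033 nt, was 1.69-fold higher, and the long BCL2L11 transcript of 5231 nt was 1.59-fold lower. After the correction their log2 fold changes were 0.39 and -0.37. Across the 10 genes, Spearman's rho between length and log2 fold change was -0.82 in mut PDZ over LPS and -0.12 after the correction. In mut PDZ over WT PDZ it was -0.92 before and -0.50 after the correction, and in mut PDZ over Control -0.88 and -0.77. A relation with length among the 10 genes thus remained in these comparisons. Each rho comes from a single pair of libraries. It was also -0.75 in LPS over Control and 0.67 in WT PDZ over LPS, where the trend over all genes was weak. Genes in the shortest decile (median length 1145 nt) had a median log2 fold change of 0.40 in mut PDZ over LPS, and those in the longest decile (9576 nt) -0.48. The correction brought the median of the 10 genes from 0.19 to 0.036, and the median size of their log2 fold changes from 0.26 to 0.16.

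**Figure D3:**
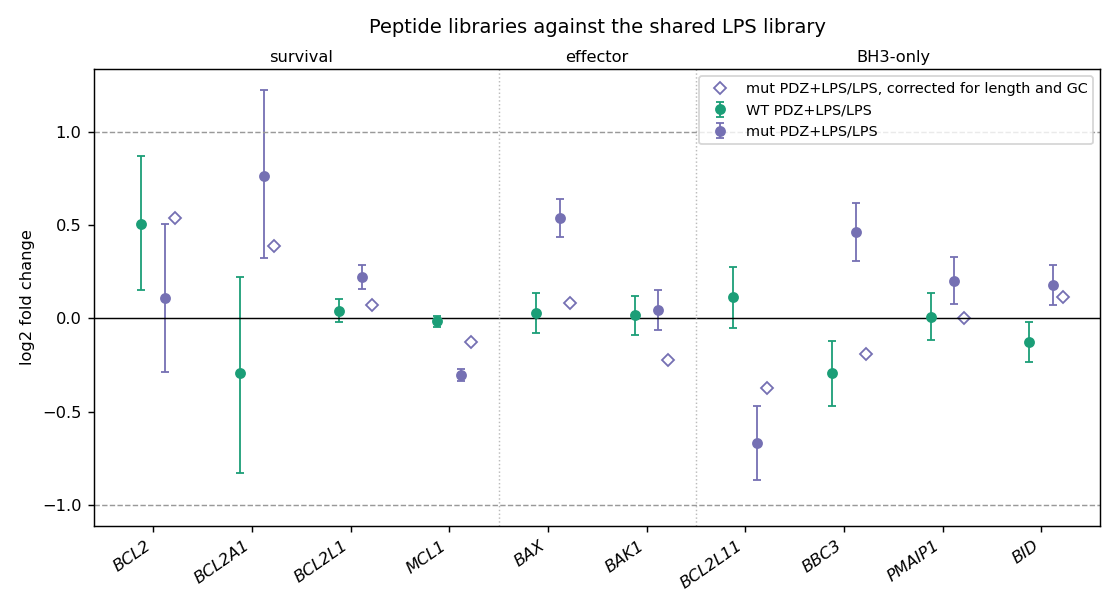
Log2 fold change of each gene (vertical axis) in WT PDZ over LPS and mut PDZ over LPS, which share the LPS library, by role. Bars are 95% exact binomial counting intervals, open diamonds are mut PDZ over LPS values corrected for length and GC content, and dashed lines mark 2-fold. No point crosses 2-fold, and the corrected value of BAX drops to 0.084 and that of BBC3 to -0.19.

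**Figure D4:**
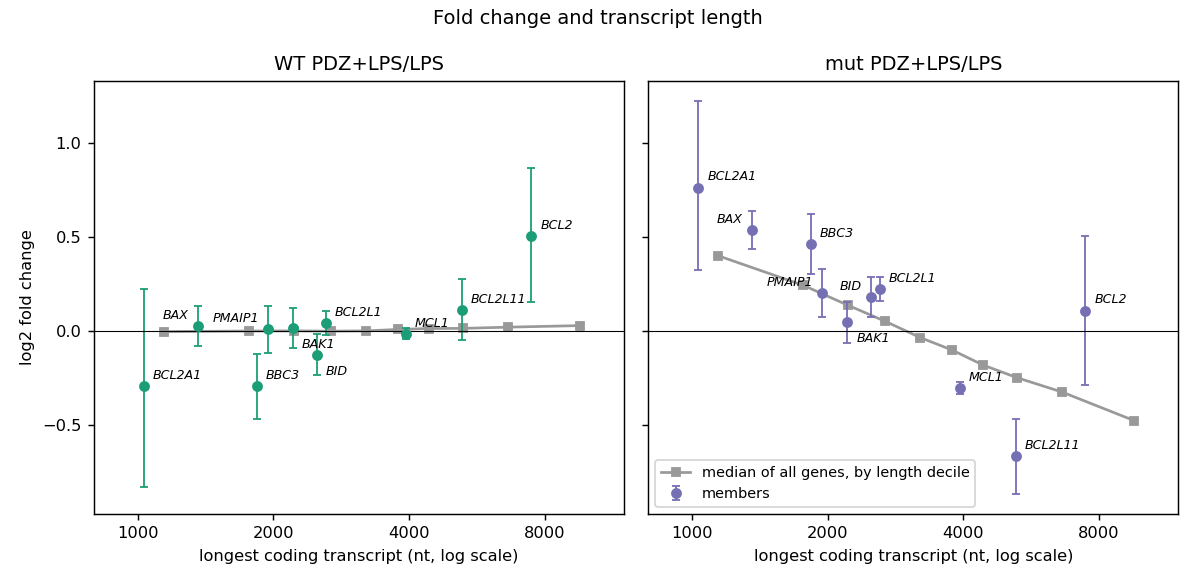
Log2 fold change (vertical axis) against the length of the longest coding transcript in nt (horizontal log axis) for the 10 genes, in WT PDZ over LPS on the left and mut PDZ over LPS on the right. Bars are 95% counting intervals and grey squares are medians of all genes by length decile. In the right panel the grey line drops from 0.40 to -0.48, and BCL2 lies above it.

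Between the peptide libraries, mut PDZ over WT PDZ, BCL2A1 was the one member called higher (2.12% of 13372 genes), and 0 were called lower (2.14%). Its log2 fold change was 1.06 [0.58 to 1.57], from 56 and 101 counts, and 0.68 after the correction, which ends the call. BBC3 had 0.75 [0.59 to 0.93] before and 0.11 after the correction. BCL2L11, not called here, had -0.78 [-0.98 to -0.58] before and -0.48 after it. Both BCL2A1 and BCL2L11 thus kept the larger part of their differences. The kept parts still lay in the direction of the length trend, with transcripts of 1033 nt and 5231 nt. Across the members, Spearman's rho between length and log2 fold change was still -0.50 here after the correction.

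Levels of different genes were compared per kilobase of the longest coding transcript. In Control the order was MCL1 (3501 normalized counts per kilobase), BCL2L1 (1774), BAX (1038), BAK1 (589), BID (350), PMAIP1 (245), BCL2L11 (148), BBC3 (52.1), BCL2 (24.0) and BCL2A1 (0). Counting intervals of neighbours did not overlap in Control. With LPS, BBC3 stood above BCL2L11, at 324 against 113 per kilobase, and BCL2A1 above BCL2, at 67.4 against 14.8. With LPS the intervals of BID (565) and PMAIP1 (528) overlapped, as did those of PMAIP1 and BID with WT PDZ, and those of BAK1, BID and PMAIP1 in neighbouring pairs with mut PDZ. With merged exons as the length, BAK1 stood above BAX in Control, LPS and WT PDZ, and PMAIP1 above BID in all libraries.

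Summed by role, the BH3-only genes held a larger share of the set in the LPS-treated libraries than in Control. BH3-only transcripts made up 10.3% of the per-kilobase sum in Control, 16.1% with LPS, 15.2% with WT PDZ and 18.3% with mut PDZ. Survival transcripts made up 68.6%, 66.2%, 66.6% and 59.2%, and effectors 21.1%, 17.7%, 18.2% and 22.5%. The survival to BH3-only ratio was 6.67 in Control [6.38 to 6.96], 4.12 with LPS [3.98 to 4.27], 4.38 with WT PDZ [4.22 to 4.55] and 3.23 with mut PDZ [3.11 to 3.36]. Control lay above the 3 LPS-treated libraries, the intervals of LPS and WT PDZ overlapped, and mut PDZ was the lowest. The survival to effector ratio was 3.26 in Control [3.13 to 3.39], 3.74 with LPS [3.59 to 3.88], 3.67 with WT PDZ [3.53 to 3.82] and 2.63 with mut PDZ [2.52 to 2.73]. Here too LPS and WT PDZ overlapped and mut PDZ was the lowest. MCL1 carried most of the survival sum, and without it the survival to effector ratio was 1.10 in Control and 0.935 with LPS, so its direction after LPS turned. Without MCL1 the survival to BH3-only ratio was 2.26 in Control, 1.03 with LPS, 1.13 with WT PDZ and 1.06 with mut PDZ. LPS was then the lowest, while mut PDZ stayed the lowest in the survival to effector ratio without MCL1, at 0.863. The trend over length was not removed from the mut PDZ sums, although the correction moved large terms of them. The mut PDZ over LPS log2 fold change went from -0.30 to -0.13 for MCL1. It went from 0.54 to 0.084 for BAX and from 0.045 to -0.22 for BAK1. The low mut PDZ ratios are therefore given for uncorrected sums only, and whether they stay the lowest with the correction was not tested. The intervals here are normal approximations on the log scale that cover counting error alone.

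**Figure D5:**
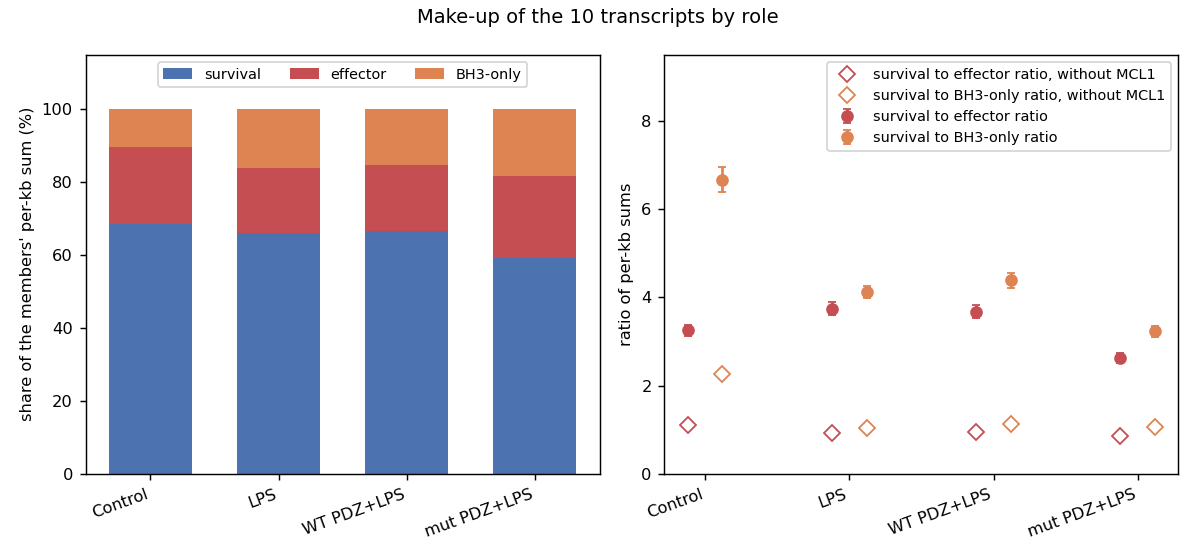
Left, share of the per-kilobase sum of the 10 genes held by survival, effector and BH3-only transcripts in each library (vertical axis, %). Right, ratio of per-kilobase sums, filled points with 95% counting intervals and open diamonds without MCL1. The survival to BH3-only ratio drops from 6.67 in Control to 4.12 with LPS, and the BH3-only share grows from 10.3% to 16.1%.

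Other genes of the pathway were read from lists, each given as the number called of those with at least 16 normalized counts in one of the libraries compared. Of 13 further BCL2 family genes, 9 were measurable in LPS over Control and 1 was called higher (3.46% of all genes), BIK, a BH3-only gene, at 6 counts in Control, 18 with LPS, 7 with WT PDZ and 17 with mut PDZ. Its LPS over Control interval runs from 0.30 to 3.32 on the log2 scale, which is too wide to size the difference. BIK was also the single gene of this list called in WT PDZ over LPS (1.37% of all genes in either direction), lower at -1.15 [-2.76 to 0.067]. BNIP3L, BNIP3 and BCL2L12, the family's most abundant others, had LPS over Control log2 fold changes of 0.030, 0.067 and 0.077, and the list's median was 0.072.

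Of 22 apoptosome, caspase and caspase-inhibitor genes, 2 were called higher in LPS over Control and 0 lower, beside 3.46% and 1.41% of all genes. BIRC3, which encodes cIAP2, a ubiquitin ligase that restrains death signalling from TNF receptors, had 1757 counts in Control, 17189 with LPS, 14033 with WT PDZ and 11171 with mut PDZ. Its LPS over Control log2 fold change was 3.40 [3.33 to 3.47]. Against LPS, the log2 fold change of BIRC3 was -0.19 with WT PDZ and -0.30 with mut PDZ, the latter -0.11 after the correction. CFLAR, which encodes c-FLIP, an inhibitor of caspase-8, had 1720 counts in Control, 4198 with LPS, 3503 with WT PDZ and 3214 with mut PDZ. These counts are not scaled for library size. The log2 fold change of CFLAR was 1.40 in LPS over Control and -0.16 in WT PDZ over LPS. In mut PDZ over LPS it was -0.064 [-0.13 to 0.0022] before and 0.57 after the correction. CYCS, cytochrome c itself, differed by 0.045 on the log2 scale in LPS over Control. The list's median log2 fold change was 0.050, beside -0.0010 over all genes.

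Of 11 regulators of BH3-only transcription, 3 were called higher in LPS over Control (3.46% of all genes) and 0 lower (1.41%), with a list median of 0.10. MYC went from 4870 counts in Control to 9466 with LPS, a log2 fold change of 1.07 [1.02 to 1.12]. ATF3, a stress-induced factor, stood at 1.33 [0.98 to 1.71] and TP63, a factor of basal epithelium, at 1.28 [0.79 to 1.84] from 46 and 105 counts. FOXO3, which drives BCL2L11 and BBC3 in other settings, had 0.48 [0.41 to 0.56], not called. Of 10 listed symbols of MCL1 and BH3-only turnover, 9 were among the counted symbols and 7 were measurable in LPS over Control. None of these was called higher (3.46% of all genes) or lower (1.41%), and the median was 0.096. A single gene of this list was called in mut PDZ over LPS, where 3.95% of all genes were called in either direction. It was HUWE1, a very large ubiquitin ligase for MCL1, lower at -1.003 [-1.05 to -0.96], and at -0.41 after the correction for length and GC content.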

How the data were processed

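RNA was sequenced from BEAS-2B cells in 4 libraries, 1 per condition. The authors selected poly(A) RNA, made directional libraries, trimmed the reads with FASTX_Trimmer and BBMap, mapped them with TopHat and deposited read counts per gene symbol without normalization. The submitters' processing notes name hg19. The counting tool, the annotation and the use of strand are not given in the sources used here. The study's methods also name FPKM and geometric normalization, but the deposited values are whole-number counts before any normalization. Totals ran from 19682929 to 25155647 counts.

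Libraries were scaled by geometric (median-of-ratios) size factors (DESeq2 1.42.0, run under R 4.3.3), and log2 fold changes used a pseudocount of 1. Medians used the 13072 genes averaging 16 or more normalized counts. Calls needed a 2-fold difference and 16 normalized counts in either library, and their share over all genes is of the genes that reached 16 in that pair. Where a library had 0 counts, 3 counts stood in for it, and the fold to that floor leaves out the counting error of the other library. For the correction, lowess curves (span 0.3) on log2 length and next on GC content were subtracted, both taken from each gene's longest coding transcript in GENCODE 29 (11751 genes). GENCODE 29 and the RefSeq promoters are on GRCh38, so no coordinates were carried from the files. All 10 members are named, with genes of the reported lists called in LPS over Control or between LPS-treated libraries, some of each list's 3 most abundant others, and the 5 genes nearest to the called member of largest fold. A list and some listed genes are not reported here. The members and lists were chosen with earlier results of these data known. Alternatives were TMM (edgeR 4.0.16), scaling to totals or to the upper quartile, a pseudocount of 5, minimums of 64 and of no normalized counts, folds of 1.5 and 3, merged exon length, and, chosen after seeing the data, length alone, leaving out BCL2A1, and ratios without MCL1. The steps were tested on simulated data. Python 3.11.15, pandas 2.3.3, scipy 1.17.1 and statsmodels 0.14.6 were used.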

Additional observations from a re-analysis of the deposited data

Results flagged for a closer look

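BBC3 and BID lay on opposite sides of the shared LPS library in the peptide-treated libraries, and in both the counting interval left out 0. On the log2 scale, the fold change of BBC3 was -0.29 in WT PDZ over LPS and 0.46 in mut PDZ over LPS. BID had -0.13 in WT PDZ over LPS and 0.18 in mut PDZ over LPS. With 1 library each, the difference between the peptides was not tested. After the correction for length and GC content the mut PDZ over LPS value was -0.19 for BBC3, which is then on the same side as WT PDZ over LPS, and 0.12 for BID.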

How the results depend on the processing

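No paired analysis was possible because each condition had 1 library, and for the same reason no replicate could be left out. The members called at other settings are given without the share of all genes, so these counts cannot be set against a background. With a fold of 1.5 the members called were 5 in LPS over Control, 2 in mut PDZ over LPS and 3 in mut PDZ over WT PDZ. With a fold of 3 they were 2 in LPS over Control, 2 in WT PDZ over Control, 2 in mut PDZ over Control and 0 in mut PDZ over WT PDZ, and the correction for length and GC content also left 0 there. For the correction, the cause was not tested. With merged exons as the length, the survival to effector ratio was 4.02 in Control, 4.60 with LPS, 4.52 with WT PDZ and 3.38 with mut PDZ, and the survival to BH3-only ratio was 8.20, 5.23, 5.47 and 4.11. Without division by length the survival to effector ratios were 6.85, 7.95, 7.82 and 5.63, and the survival to BH3-only ratios 8.37, 6.25, 6.55 and 5.00. Without MCL1 they were 1.10, 0.935, 0.942 and 0.863, and 2.26, 1.03, 1.13 and 1.06. Of the 60 member values, total-count scaling moved 14 beyond their counting interval, upper-quartile scaling 8, a pseudocount of 5 moved 3 (BCL2A1 against Control), TMM 0, and the correction 23. With total-count scaling 2 members were called in LPS over Control and 2 in WT PDZ over Control, PMAIP1 standing at 0.98 in both on the log2 scale, and with 64 normalized counts 2 in WT PDZ over Control. Total-count scaling shifted the all-gene median of LPS over Control to -0.13 on the log2 scale, and BAK1 to 0.022. Depth limits BCL2A1, BCL2 and BBC3 in Control most.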
